A study of Mus musculus with 9 samples.

Results

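A set of 9 genes of retinoic acid synthesis and response were followed in ST2 cells, a bone marrow stromal line of the mouse that is used as a model of mesenchymal stem cells. The genes were Rdh10, Dhrs3, Aldh1a1, Aldh1a2, Aldh1a3, Crabp1, Crabp2, Rarb and Cyp26b1, matched by symbol, and they are 9 of the 54532 genes in the deposited table. They were selected on these data, because retinoic acid signaling ranked high among genes whose counts changed with rhWnt3a and again with OSMI, so the fold changes behind that ranking are given for them as a description and without a test. Enough reads for a fit were counted for 5 of the 9 (Rdh10, Dhrs3, Aldh1a1, Crabp2 and Cyp26b1), out of 14004 genes fitted in all.

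Messenger RNA was sequenced from wild-type ST2 cells after 72 h with vehicle, with 50 ng/ml recombinant human Wnt3a (rhWnt3a), or with 50 ng/ml rhWnt3a plus 20 µM OSMI, an inhibitor of the O-GlcNAc transferase OGT, in 3 libraries per group. The third group follows the sample titles and the study's results text, since its treatment label names OSMI without rhWnt3a. The study's sequencing methods also list OSMI and rhWnt3a singly, without the combination. No group with OSMI alone was analysed here, so an effect of OSMI can be read only in cells that also had rhWnt3a. ST2 is a single cell line. The study calls the 3 replicates of its expression heatmap biological. The labels do not say whether the 3 libraries of a group came from separate cultures. Because whole cultures were measured, fewer cells of a type and less RNA per cell cannot be told apart.

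The libraries held between 16135898 and 17583945 counted reads, and 3 reads in a library correspond to 0.170 to 0.191 CPM, the depth-scaled count used throughout (TMM scaling). Axin2, a feedback target of Wnt signaling used to check the labels, rose with rhWnt3a by 5.06 ± 0.35 (SE) on the log2 scale (edgeR quasi-likelihood test, Benjamini-Hochberg adjusted p = 3.67e-05). In the third group Axin2 was above vehicle by 4.55 ± 0.35 (edgeR adjusted p = 4.78e-05). It differed there from rhWnt3a alone by −0.51 ± 0.26 (edgeR adjusted p = 0.280). A gene is said to pass, rise or fall where this adjusted p was under 0.05 and the log2 difference was beyond 0.5 in size. Of 8 bone marrow stroma markers, 7 were expressed in every group, while Thy1 was near 0. Their summed level was 40359 to 74998 CPM with vehicle, 32066 to 59828 CPM with rhWnt3a and 29749 to 44062 CPM with rhWnt3a and OSMI. All 7 had a lower mean with rhWnt3a than with vehicle, and once OSMI was added 6 had a lower mean still, such as Sparc at 3430, 2698 and 1026 CPM in the 3 groups, while Cxcl12 was at 1323, 266 and 358 CPM. The summed level of 5 blood cell markers was 0.855 to 1.70 CPM with vehicle, 0.419 to 0.852 CPM with rhWnt3a and 0.350 to 0.861 CPM with rhWnt3a and OSMI, with Itgam and Cd3e at 0 throughout. The 4 endothelial and the 4 epithelial markers summed to at most 1.28 and 0.244 CPM in any library. Libraries of a group also differed along a shared axis that took 54.8% of the variance within groups, with vehicle replicate 3, rhWnt3a replicate 2 and both OSMI replicates 1 and 2 on the same side of it.

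Retinoic acid is made from vitamin A inside the cell in a pair of oxidation steps. Retinol dehydrogenases such as Rdh10 turn retinol into retinal, reductases such as Dhrs3 turn retinal back into retinol, and the retinaldehyde dehydrogenases of the Aldh1a family make retinoic acid from retinal in a step that is not reversed. Crabp proteins carry retinoic acid in the cytoplasm, Cyp26 enzymes degrade it, and in the nucleus it binds retinoic acid receptors (RAR), which sit with retinoid X receptors (RXR) on direct repeats of a short hexamer. Rarb, Dhrs3 and the Cyp26 genes are themselves well-known targets of retinoic acid, and retinoids are known to act on skeletal patterning and on osteoblast differentiation.

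Rdh10, which carries out the rate-limiting oxidation of retinol in the embryo, was the member whose RNA differed most between vehicle and rhWnt3a among those fitted. Its levels were 22.7, 22.0 and 23.4 CPM in the 3 vehicle libraries. They were 95.7, 111 and 99.9 CPM with rhWnt3a. With rhWnt3a and OSMI they were 41.0, 38.0 and 47.7 CPM. The 3 groups did not overlap, and the libraries with OSMI lay between the others. Such separation was found for 12.2% of all fitted genes upward with rhWnt3a and for 17% downward when OSMI was added. On the log2 scale Rdh10 was higher with rhWnt3a than with vehicle by 2.17 ± 0.13 (SE), or 4.50-fold. Adding OSMI to rhWnt3a left it 2.42-fold lower, a log2 difference of −1.28 ± 0.13, and still 1.86-fold above vehicle, a log2 difference of 0.89 ± 0.13. Rdh10 spans chr1:16105774-16133734 on the plus strand (mm10), and its coding transcript in GENCODE M21 has 6 exons.

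Dhrs3, which reduces retinal back to retinol and works in a complex with Rdh10, had the same order of groups at lower counts. The vehicle libraries held 16.1, 15.6 and 18.4 CPM of Dhrs3. The rhWnt3a libraries held 46.4, 51.1 and 50.7 CPM. The libraries with rhWnt3a and OSMI held 23.2, 22.8 and 24.6 CPM. Again no library of a group reached into another group, although the gap between the highest vehicle library and the lowest OSMI library was small. Dhrs3 was 2.95-fold higher with rhWnt3a than with vehicle (log2 difference 1.56 ± 0.12) and 2.10-fold lower once OSMI was added (−1.07 ± 0.12). The remaining difference between rhWnt3a with OSMI and vehicle was 0.49 ± 0.12 on the log2 scale, and 0.46 to 0.57 when each library was left out. Dhrs3 lies at chr4:144892827-144928209 on the plus strand.

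Because Rdh10 and Dhrs3 run opposite reactions, their levels were set against each other per length, using the deposited FPKM, which are counts scaled to gene length and depth. The ratio of Rdh10 to Dhrs3 was 0.960 ± 0.057 (SD, n = 3) with vehicle, 1.46 ± 0.072 with rhWnt3a and 1.26 ± 0.097 with rhWnt3a and OSMI. Single vehicle libraries ran from 0.894 to 0.994, rhWnt3a libraries from 1.39 to 1.53, and OSMI libraries from 1.17 to 1.37. The oxidase was thus close to the reductase in RNA level with vehicle and above it in all 6 libraries with rhWnt3a. The ranges of the 3 groups did not meet, although the gap between the OSMI and rhWnt3a libraries was small (1.37 and 1.39). Both genes were picked for changes in these comparisons, so the ratio is a description. Across the 9 libraries the log2 CPM of Rdh10 and Dhrs3 had a Pearson correlation of 0.990, which describes libraries that share their treatment and is given without a test.

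**Figure D1:**
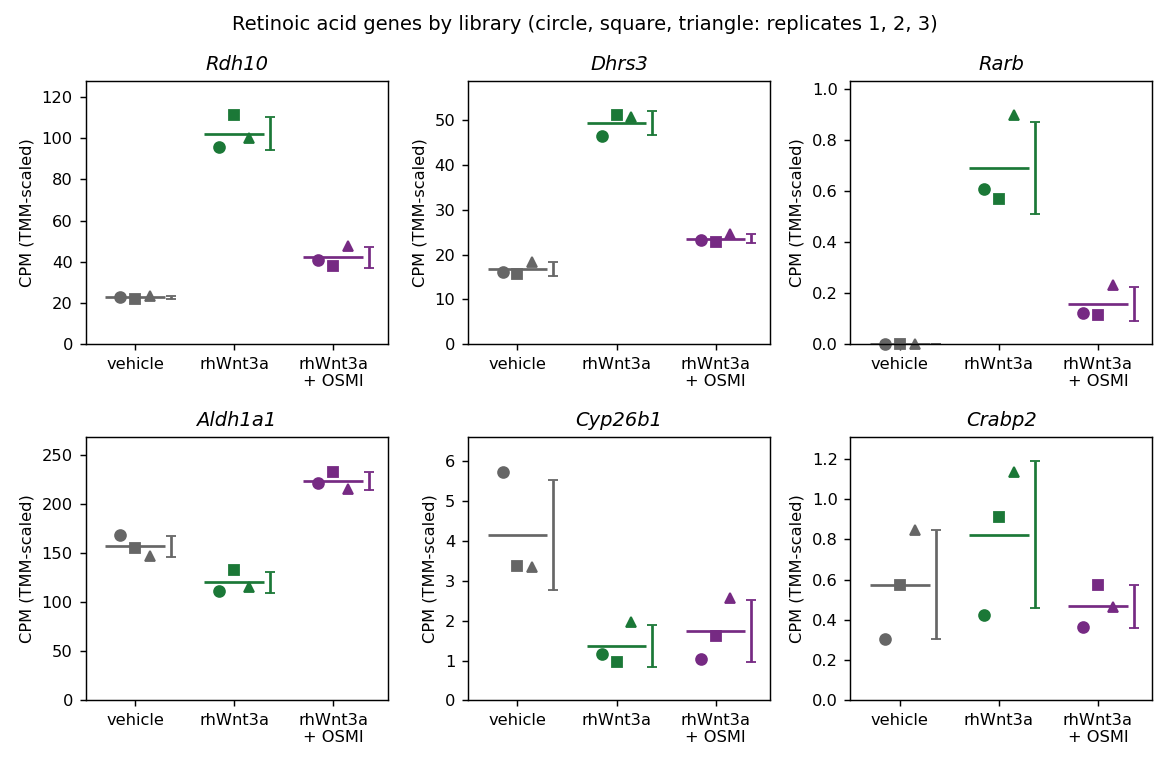
TMM-scaled CPM (y axis, from 0, a scale per gene) in each library of the 3 groups (x axis). Circle, square and triangle are replicates 1, 2 and 3, the horizontal line is the group mean and the bar beside it is ± SD (n = 3). Rdh10, Dhrs3 and Rarb are highest with rhWnt3a and lower with OSMI added, Aldh1a1 is lowest with rhWnt3a, Cyp26b1 is highest with vehicle, and the Crabp2 groups overlap.

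Aldh1a1, a cytosolic enzyme that makes retinoic acid from retinal, was the member with the highest FPKM with vehicle and ran against Rdh10 and Dhrs3. Its vehicle libraries had 168, 155 and 147 CPM. The rhWnt3a libraries had 112, 133 and 115 CPM. With OSMI the values were 221, 233 and 215 CPM. Every rhWnt3a library was below every vehicle library, and every OSMI library was above all the others. The difference between rhWnt3a and vehicle was −0.39 ± 0.12 on the log2 scale, a 1.31-fold lower level. Between rhWnt3a with OSMI and rhWnt3a it was 0.89 ± 0.12, or 1.86-fold higher. Against vehicle, Aldh1a1 with OSMI was 1.42-fold higher (0.51 ± 0.12 on the log2 scale), and 0.47 to 0.58 when each library was left out. Aldh1a1 is at chr19:20492715-20643462 on the plus strand. C730002L08Rik overlaps it on the other strand and totaled 1, 1 and 7 counts in the 3 libraries of vehicle, rhWnt3a, and rhWnt3a with OSMI. A processed pseudogene on that strand, Gm6684, also overlaps it, and its counts were not examined.

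The other Aldh1a enzymes contributed almost no RNA. Aldh1a2, the main retinoic acid-producing enzyme of the early embryo, was at 0 counts in all 9 libraries, which allows at most 0.0587 to 0.0603 CPM for a group if 3 counts over its libraries are taken as the limit. Aldh1a3 had 0 to 4 counts in a library and totaled 4 counts with vehicle, 5 with rhWnt3a and 8 with rhWnt3a and OSMI, so no difference between groups was detectable at this depth. Aldh1a1 therefore held between 99.9% and 100% of all counts on the 3 Aldh1a genes in every library. In FPKM, Aldh1a1 was at 31.4 ± 2.46 (SD, n = 3) with vehicle, 23.8 ± 2.45 with rhWnt3a and 44.4 ± 1.26 with rhWnt3a and OSMI. Rdh10 was at 5.39 ± 0.14 FPKM with vehicle and 24.1 ± 2.11 FPKM with rhWnt3a, and at 8.88 to 11.5 FPKM in the libraries with OSMI. Per length, then, Aldh1a1 was above Rdh10 with vehicle and with OSMI, whereas with rhWnt3a alone the 2 means differed by less than the SD of either.

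The Crabp genes had few or no counts. Crabp1 was at 0 counts in all 9 libraries, with the same limit as Aldh1a2. Crabp2, which hands retinoic acid to its receptors, was counted at 5, 9 and 15 reads with vehicle, 7, 16 and 19 with rhWnt3a, and 6, 10 and 8 once OSMI was added. The 3 ranges overlapped, and the log2 differences were 0.51 ± 0.48 for rhWnt3a against vehicle, −0.81 ± 0.49 for OSMI added to rhWnt3a, and −0.30 ± 0.51 for rhWnt3a with OSMI against vehicle, the last turning to 0.099 without vehicle replicate 3. At these counts a 1.42-fold difference, the size of the value for rhWnt3a against vehicle, is about as large as its SE.

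Rarb, a receptor gene that retinoic acid itself induces, was not detected with vehicle. It had 0 counts in each of the 3 vehicle libraries. There were 10, 10 and 15 counts with rhWnt3a. There were 2, 2 and 4 counts with rhWnt3a and OSMI. In CPM the 3 groups did not overlap, although Rarb was too low for the fit across genes. Taking 3 counts over the vehicle group as the limit, the observed Rarb level was 11.4-fold above it with rhWnt3a and 2.60-fold with OSMI added. These 2 values leave out the error of the observed counts. Their 95% counting intervals were 24.4 to 48.7 for 35 counts with rhWnt3a and 3.45 to 15.8 for 8 counts with OSMI added. Scaled to depth it was 4.41 times higher with rhWnt3a than with OSMI added (95% counting interval 2.01 to 11.0, from 35 against 8 counts). This interval covers counting error only and not the spread between cultures. Rarb occupies chr14:16430839-16819156 on the minus strand, and its 3′ end overlaps Top2b on the plus strand over chr14:16430839-16435462. Over all its transcripts, 34.1% of the exon bases lie in that stretch, and 57.7% of its longest coding transcript matches Top2b. The strand setting of the counting is not given in the sources used here, so reads in that stretch cannot be assigned with certainty. Top2b itself was at 197 ± 9.14 (SD, n = 3), 225 ± 1.98 and 200.1 ± 30.2 CPM in vehicle, rhWnt3a, and rhWnt3a with OSMI, and the part of Top2b reads in the Rarb counts was not tested.

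Cyp26b1, which inactivates retinoic acid, was lower in all 6 libraries that had rhWnt3a. It had 5.74, 3.38 and 3.34 CPM with vehicle. It had 1.16, 0.966 and 1.97 CPM with rhWnt3a. It had 1.03, 1.61 and 2.56 CPM with rhWnt3a and OSMI. The vehicle libraries lay above all the others, vehicle replicate 1 by the widest margin, and the remaining groups overlapped. The log2 difference between rhWnt3a and vehicle was −1.60 ± 0.41, a 3.03-fold lower level. It was 0.35 ± 0.42 when OSMI was added to rhWnt3a, with its sign turning to −0.044 without OSMI replicate 3, and −1.25 ± 0.40 between rhWnt3a with OSMI and vehicle. The counts behind these values were 17 to 94 in a library, and with each library left out the difference between rhWnt3a and vehicle ran from −1.96 to −1.30 and that between rhWnt3a with OSMI and vehicle from −1.64 to −0.92. Cyp26b1 lies at chr6:84571414-84593908 on the minus strand.

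**Figure D2:**
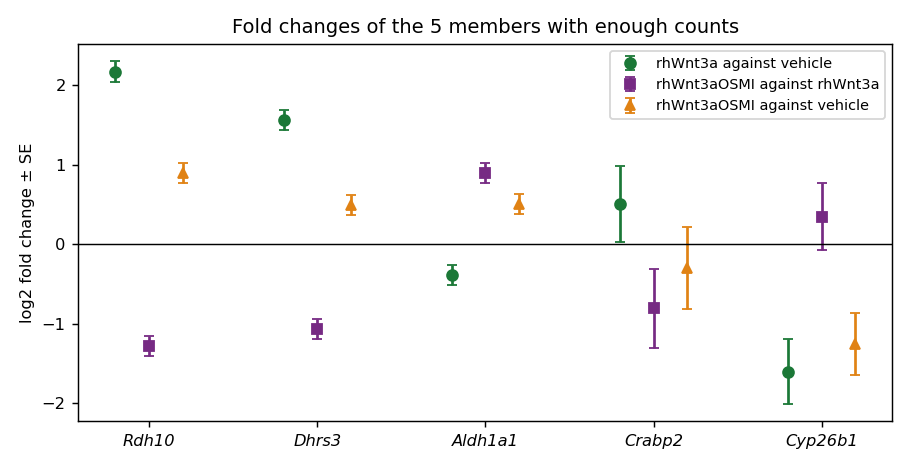
Log2 fold change ± SE (y axis) of the 5 members with enough counts (x axis), from the edgeR fit over 9 libraries. Rdh10 and Dhrs3 lie above 0 for rhWnt3a against vehicle (2.17 and 1.56) and below 0 when OSMI was added (−1.28 and −1.07), Aldh1a1 has the opposite signs (−0.39 and 0.89), and the errors of Crabp2 and Cyp26b1 are wider.

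The members were picked for calls in these comparisons, so their counts among the called genes describe that choice, are no test, and nothing is read from them. For rhWnt3a against vehicle the called genes held Rdh10 and Dhrs3 upward and Cyp26b1 downward, 3 of the 5 members fitted, where 8.78% of all fitted genes passed, 2.92% upward and 5.86% downward. When OSMI was added to rhWnt3a, they held Rdh10 and Dhrs3 downward and Aldh1a1 upward, 3 of 5, where 4.74% of all passed, 3.05% downward and 1.69% upward. Between rhWnt3a with OSMI and vehicle, they held Rdh10 and Aldh1a1 upward, 2 of 5, where 14.2% of all passed, 4.84% upward and 9.34% downward, and there Aldh1a1 at 0.51 and Dhrs3 at 0.49 lay on either side of the log2 limit of 0.5. With each of the 9 libraries left out, the Cyp26b1 call for rhWnt3a against vehicle was kept in 4 fits. The Aldh1a1 call for rhWnt3a with OSMI against vehicle was kept in 5, and the other member calls in all 9. Of all fitted genes, 1.69% passed at both steps, and 0.736% were higher and then lower, Rdh10 and Dhrs3 among them. Separation in the other directions was of similar frequency: groups did not overlap for 14.2% of fitted genes downward with rhWnt3a against vehicle, for 16.7% upward when OSMI was added, and for 19.3% upward and 19.5% downward with rhWnt3a and OSMI against vehicle.

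Vehicle replicate 3, rhWnt3a replicate 2 and OSMI replicates 1 and 2 were set apart from the other libraries by the axis within groups, so differences were also taken within each side of it. The groups compared here did not overlap for these genes, so the sign could not turn in any such split and only sizes are given. For Rdh10 the log2 differences were 2.24 and 2.12 for rhWnt3a against vehicle and −1.49 and −1.03 for OSMI added to rhWnt3a. For Dhrs3 they were 1.46 and 1.60 and then −1.15 and −0.98. For Aldh1a1 the rhWnt3a difference was −0.15 on one side and −0.51 on the other, and the OSMI difference was 0.77 and 0.92. For Cyp26b1 it was −1.67 and −1.47 with rhWnt3a. A side holds 1 or 2 libraries of a group, so these values have no error.

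The promoters of the members were read for the elements that retinoic acid receptors and the Wnt effectors TCF/LEF bind. RefSeq windows (GRCm38.p6) of 250 bases before and 50 bases after the start site were given for 6 of the 9 members, and Rdh10, Aldh1a3 and Crabp2 had none. The receptor element searched was a direct repeat of the hexamer AGGTCA or one of its variants AGTTCA (T in the middle), GGGTCA (opening with G) and GGTTCA (with both changes), spaced by 5 bases (DR5) or by 2 bases (DR2), and the TCF/LEF motif was CTTTGAA or CTTTGAT, all on both strands. A hexamer in a direct repeat is also counted among single hexamers. Of 32851 promoters, 0.0974% held a DR5, 0.268% a DR2, 43.7% at least 1 hexamer and 8.65% a TCF/LEF motif. Among the members, DR5 was found in the Rarb promoter alone, and no member promoter held a DR2.

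The Rarb element is shown because the gene went from 0 counts to 35 and back to 8, and that of Cyp26a1, the other retinoid gene with a DR5, is shown for comparison. Both lines run along the strand of the gene, with the DR5 in capitals and 6 bases on each side, Rarb at chr14:16575507-16575535 (minus strand) and Cyp26a1 at chr19:37697770-37697798 (plus strand). In Rarb the repeat lies at −53 to −37 from the start site, and GENCODE starts a coding transcript 67 bases further upstream. In Cyp26a1 it lies at −32 to −16 and reads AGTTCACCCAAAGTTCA on the opposite strand.
Rarb: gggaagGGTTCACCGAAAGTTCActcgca
Cyp26a1: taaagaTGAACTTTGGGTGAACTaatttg

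The counts of Cyp26a1, another enzyme that degrades retinoic acid, were 5, 8 and 25 with vehicle, 6, 14 and 16 with rhWnt3a, and 3, 7 and 11 once OSMI was added, with groups that overlapped. Its log2 difference between rhWnt3a and vehicle was −0.086 ± 0.62 (edgeR adjusted p = 0.966), and its sign turned without vehicle replicate 3 (0.79) or rhWnt3a replicate 1 (0.25). In the same comparison the observed Rarb level with rhWnt3a was 11.4-fold above the limit set for vehicle, with its counting error left out.

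The Dhrs3 and Aldh1a1 windows are shown because these genes were well covered and differed between groups in opposite ways. Dhrs3 is printed for chr4:144892577-144892826 and Aldh1a1 for chr19:20492333-20492582, both on the plus strand. Each runs up to the base before the outermost RefSeq start site of its gene, with TCF/LEF motifs in capitals.
Dhrs3: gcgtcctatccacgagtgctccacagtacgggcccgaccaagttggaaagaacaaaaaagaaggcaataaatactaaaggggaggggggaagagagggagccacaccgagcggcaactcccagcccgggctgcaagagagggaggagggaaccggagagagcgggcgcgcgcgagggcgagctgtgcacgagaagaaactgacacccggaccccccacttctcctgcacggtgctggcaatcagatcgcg
Aldh1a1: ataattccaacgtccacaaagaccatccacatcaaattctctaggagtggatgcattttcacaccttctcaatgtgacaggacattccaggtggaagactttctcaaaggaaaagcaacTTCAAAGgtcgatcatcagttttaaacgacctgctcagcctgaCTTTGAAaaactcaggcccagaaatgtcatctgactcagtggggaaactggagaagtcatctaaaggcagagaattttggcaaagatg

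The Dhrs3 window held neither element. The windows of its other start sites, which overlap each other and lie inside the gene, shared the TCF/LEF motif CTTTGAA, which lies −45 to −39 from the inner start and −105 to −99 from the innermost. The printed Aldh1a1 window held CTTTGAA at −131 to −125 on the minus strand and again at −88 to −82 on the plus strand. Its start site lies before the deposited span of the gene. A window at another start site, further inside Aldh1a1, held a GGGTCA hexamer and no TCF/LEF motif. No TCF/LEF motif was found in the windows of Rarb, Cyp26b1, Aldh1a2 and Crabp1. These matches are letters in a window and were not tested for binding.

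**Figure D3:**
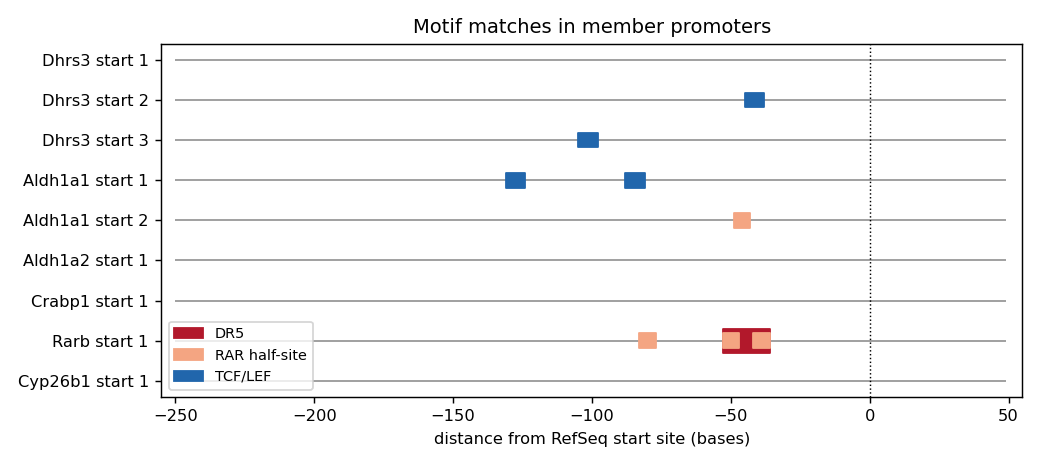
Motif matches by distance from the RefSeq start site (x axis, bases, start site at 0) in the 9 promoter windows of 6 members (y axis). The DR5 at −53 to −37 lies in Rarb alone, and the TCF/LEF motifs lie in the inner Dhrs3 windows and in the outer Aldh1a1 window.

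Other genes of the pathway came from a list of 57, of which 34 had enough counts for the edgeR test. The list was written with earlier results of these data known, so its shares are a description and no test of the pathway. With rhWnt3a, 2 of them rose (Adh1, Tgm2) and 2 fell (Dhrs9, Cd38), or 11.8% against 8.78% of all fitted genes, and the median log2 difference was −0.086 against 0.037 for all. When OSMI was added to rhWnt3a, none rose and 3 fell (Adh1, Tgm2, Cd38), or 8.82% against 4.74%, with a median of 0.100 against −0.015. Between rhWnt3a with OSMI and vehicle, 2 rose (Tgm2, Meis2) and 3 fell (Dhrs9, Fabp5, Cd38), or 14.7% against 14.2%, with a median of 0.126 against −0.008. Adh1 and Tgm2 rose with rhWnt3a and fell with OSMI, in the order of Rdh10 and Dhrs3. Change at both steps is what the members were picked for, so this likeness is no separate support. The 3 falls are less firm than the rises: between 0 and 3 of the list passed for OSMI added to rhWnt3a when each of the 9 libraries was left out, none of them without rhWnt3a replicate 2 or OSMI replicate 1.

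Of the 11 listed genes of retinol and carotenoid uptake, storage and carriage, 10 had at most 3 counts in any library. The remaining gene, Scarb1, is a membrane receptor for lipoproteins that also takes up carotenoids. It was at 93.0, 83.7 and 58.1 CPM with vehicle, 51.6, 52.2 and 52.5 CPM with rhWnt3a, and 62.0, 64.0 and 65.0 CPM once OSMI was added. Every rhWnt3a library was below every other library, but the log2 difference from vehicle, −0.59 ± 0.16, did not pass (edgeR adjusted p = 0.0543). It passed without vehicle replicate 3 (−0.76), with no filter on low counts and with DESeq2. The difference when OSMI was added, 0.29 ± 0.16, did not pass either (edgeR adjusted p = 0.319).

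Adh1, an alcohol dehydrogenase that can oxidize retinol, rose by 1.41 ± 0.26 on the log2 scale with rhWnt3a (edgeR adjusted p = 0.00678) and changed by −1.43 ± 0.26 when OSMI was added (edgeR adjusted p = 0.0143). Its rhWnt3a libraries were at 9.73, 13.7 and 9.45 CPM, and the other 6 libraries were between 3.06 and 5.31 CPM. The fall of Adh1 no longer passed without rhWnt3a replicate 2 (−1.21) or OSMI replicate 1 (−1.28). Dhrs9, which also oxidizes retinol, went the other way and fell with rhWnt3a, with a log2 change of −1.23 ± 0.24 (edgeR adjusted p = 0.00911), from 62.3 to 106 CPM with vehicle to 26.9 to 45.3 CPM. OSMI was followed by no further change in Dhrs9 that passed the test (−0.31 ± 0.23, edgeR adjusted p = 0.455). Of the 10 other retinol and retinal enzymes fitted, Adh1 and Dhrs9 were the only ones that passed in any comparison.

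Besides Cyp26b1, the retinoic acid-degrading genes Cyp26a1 and Cyp26c1 had 3 to 25 counts in a library, and neither passed in any comparison. Fabp5, which carries retinoic acid to Ppard in place of the RAR, fell between vehicle and rhWnt3a with OSMI, with a log2 change of −1.43 ± 0.27 (edgeR adjusted p = 0.00666). Its range was 47.7 to 53.8 CPM with vehicle, 25.9 to 38.9 CPM with rhWnt3a and 11.2 to 25.7 CPM with rhWnt3a and OSMI. The single steps did not pass, at −0.67 ± 0.27 with rhWnt3a (edgeR adjusted p = 0.185) and −0.76 ± 0.27 with OSMI added (edgeR adjusted p = 0.136), although the rhWnt3a step passed without OSMI replicate 3 (−0.67).

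The nuclear receptors with enough counts for the fit were Rara, Rarg, Rxra, Rxrb and Ppard. None of them passed in any of the 3 comparisons, and Rxrg was at 0 counts. The largest difference among them was that of Rxra when OSMI was added, at 0.57 ± 0.21 on the log2 scale (edgeR adjusted p = 0.145). Per length, Rarb with rhWnt3a (0.129 ± 0.033 FPKM, SD, n = 3) was far below Rarg (30.5 ± 0.71 FPKM) and Rara (10.7 ± 0.81 FPKM) in the same libraries. Rarb was at 0.0294 ± 0.013 FPKM with rhWnt3a and OSMI and was listed at 0 with vehicle. The 8 coregulators fitted did not pass either. Ncor1, a corepressor of the unbound receptors, and Ep300, a coactivator, were the most abundant of them by CPM and differed between libraries of a group by more than the group means did.

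**Figure D4:**
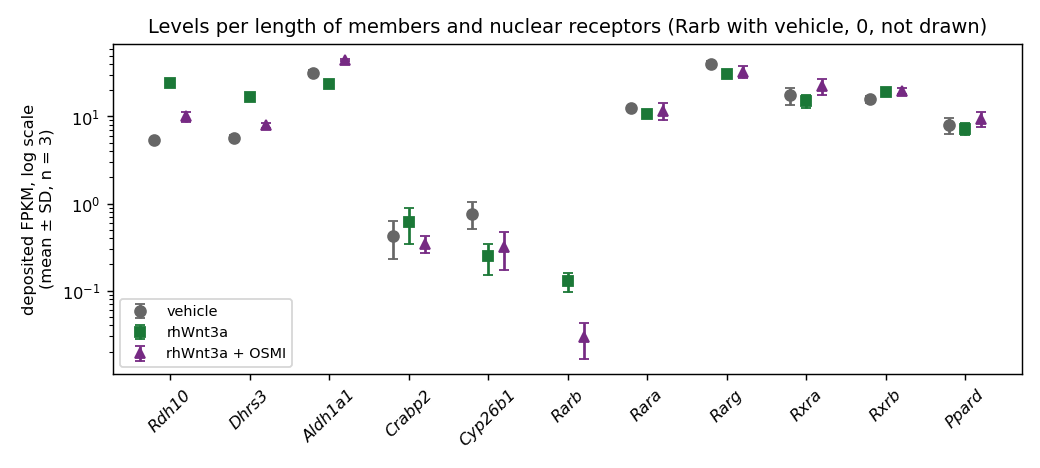
Deposited FPKM (y axis, log scale, mean ± SD, n = 3) of 6 members and 5 nuclear receptors (x axis) in the 3 groups. Aldh1a1 and Rarg lie highest with vehicle and with OSMI added. With rhWnt3a, Rarg lies highest, Rdh10 and Dhrs3 reach 24.1 and 16.5 FPKM, and Aldh1a1 is at 23.8 FPKM. The Rarb means reach 0.129 FPKM at most, below the other receptors, with its vehicle value of 0 not drawn.

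Among genes known to respond to retinoic acid, Tgm2, a transglutaminase with a receptor element in its promoter region, followed Rdh10. Tgm2 was at 25.0, 24.0 and 23.4 CPM with vehicle, 113, 92.4 and 120 CPM with rhWnt3a, and 48.4, 36.2 and 74.4 CPM once OSMI was added. It rose with rhWnt3a by 2.17 ± 0.24 on the log2 scale (edgeR adjusted p = 4.25e-04), changed by −1.03 ± 0.23 when OSMI was added (edgeR adjusted p = 0.0350), and stayed above vehicle by 1.14 ± 0.23 (edgeR adjusted p = 0.0102). Its fall ran from −1.11 to −0.78 where a library was left out and the call was lost, and passed only without vehicle replicate 3 or OSMI replicate 3.

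Cd38, an ectoenzyme that retinoic acid induces in blood cells, fell at each step instead. It had 29, 21 and 30 counts with vehicle, 6, 13 and 7 with rhWnt3a, and 1, 2 and 2 once OSMI was added. The log2 differences were −1.64 ± 0.37 with rhWnt3a (edgeR adjusted p = 0.0199), −2.30 ± 0.52 when OSMI was added (edgeR adjusted p = 0.0374) and −3.94 ± 0.47 in all (edgeR adjusted p = 5.34e-04). Every library with OSMI held fewer than 3 Cd38 reads, so the sizes of the last 2 differences rest on very few counts. The rhWnt3a step no longer passed without vehicle replicate 1 (−1.56) or 2 (−1.73) or rhWnt3a replicate 1 (−1.42) or 3 (−1.52), and the OSMI step passed only without vehicle replicate 3. The summed blood cell markers, of which Cd68 alone had enough counts for the fit, lay below every vehicle library with rhWnt3a, while the groups with vehicle and with OSMI overlapped, and their part in the change of Cd38 was not tested. Meis2, a homeobox gene of the limb, rose between vehicle and rhWnt3a with OSMI by 0.56 ± 0.16 (edgeR adjusted p = 0.0388), a call that was kept in 6 of 16 alternative fits.

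**Figure D5:**
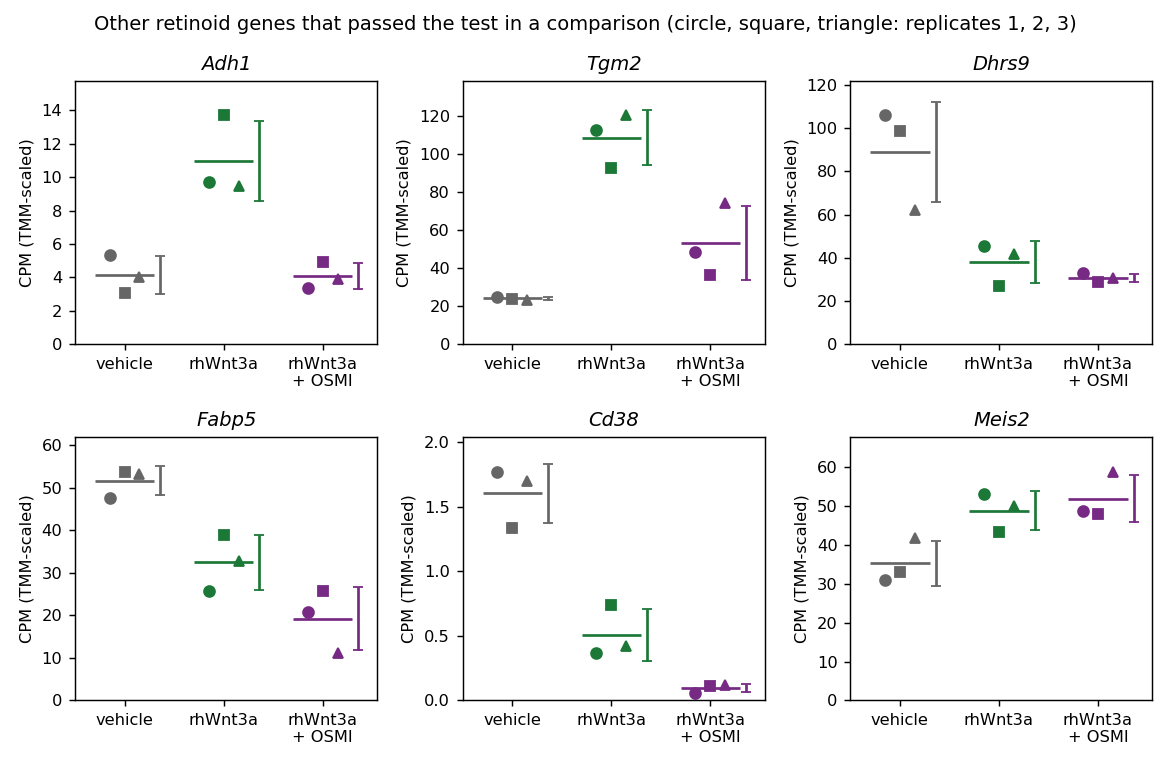
TMM-scaled CPM (y axis, from 0) by library and group (x axis) of the 6 other retinoid genes that passed in at least 1 comparison. Symbols, lines and bars are as for the members. Adh1 and Tgm2 are highest with rhWnt3a, while Dhrs9, Fabp5 and Cd38 are highest with vehicle.

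Over the 9 libraries, the gene whose log2 CPM was most like that of Rdh10 was Nkain1, with a Pearson correlation of 0.994, followed by Dhrs3 at 0.990 and Txndc11 at 0.986. For Dhrs3 the nearest genes were Nkain1 at 0.992, Rdh10 at 0.990 and Hexdc at 0.982. For Aldh1a1 they were Paf1 at 0.970, Ankrd40 at 0.970 and Pde8b at 0.953. The libraries share treatment, so 3 separated groups of 3 are enough to give values of this size. Among the members themselves Aldh1a1 correlated with Rdh10 at −0.50 and with Dhrs3 at −0.59, and Cyp26b1 with Rdh10 at −0.74.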

How the data were processed

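ST2 cells were profiled by poly-A RNA sequencing in 9 libraries, 3 per group. The submitters' processing notes name CASAVA, fastp, HISAT2 2.0.5, featureCounts 1.5.0-p3 and the build mm10, and strand setting and annotation are not given in the sources used here. The authors deposited raw read counts per gene, without normalization, and FPKM values together with the gene length used for them. Log2 fold changes and p-values of the authors' own comparisons are also deposited and were not used. No column of per-sample values (0) was left out otherwise.

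The fit used edgeR 4.0.16 under R 4.3.3. The filter filterByExpr left 14004 genes at a minimum count of 10 and a total of at least 15. Libraries were scaled by TMM, and glmQLFit on the 3 groups without covariates was followed by two-sided glmQLFTest with Benjamini-Hochberg adjustment over all fitted genes. A call required 0.05 as the upper limit of the adjusted p, and 0.5 as the lower limit of the absolute log2 fold change. The common dispersion was 0.0452. The procedure was also run on simulated counts drawn independently for each library. Those counts leave out the axis shared by libraries within groups, so that run says nothing about its effect on the calls. Log2 CPM for correlations used a prior count of 2. Deposited positions were compared with GENCODE M21 (GRCm38), where 53499 of 54532 genes had the same span, and copies at least 97% identical over 100 bases were sought with BLAST 2.17.0 and found only for Rarb, in the overlapping Top2b. Intervals for counts are 95% and cover counting error only.

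Alternatives were DESeq2 size factors, upper-quartile scaling, no filter, 10 counts in every library, DESeq2 1.42.0, the 6 libraries compared, a replicate block, and each library left out. The members and the lists of other genes were chosen with earlier results of these data known, and 2 listed genes are not reported here and were left out of the list counts. Named genes were all members, every other listed gene that passed in a comparison, all fitted nuclear receptors, the 2 most abundant genes of lists without a call, the 3 genes most like each of the 3 most abundant members, and Axin2. Top2b and C730002L08Rik were added after their values were seen, and Gm6684 is named for its position only.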

Additional observations from a re-analysis of the deposited data

How the results depend on the processing

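The members were chosen on these comparisons, so their refits are given here as values only. Over all alternatives and both sides of the axis that separates replicates, the log2 differences for rhWnt3a against vehicle ran from 2.11 to 2.25 for Rdh10, 1.46 to 1.64 for Dhrs3, −0.51 to −0.15 for Aldh1a1, 0.089 to 0.91 for Crabp2 and −1.96 to −1.30 for Cyp26b1. Within the sides, values outside the spread of replicates were, for rhWnt3a against vehicle, 1.46 for Dhrs3 and −0.15 and −0.51 for Aldh1a1. For OSMI added to rhWnt3a they were −1.49 and −1.03 for Rdh10, −0.98 for Dhrs3 and 0.77 for Aldh1a1. For rhWnt3a with OSMI against vehicle they were 0.75 and 1.09 for Rdh10, 0.32 and 0.63 for Dhrs3 and 0.62 for Aldh1a1. Same-numbered libraries correlated in their deviations at −0.49 to 0.44, so the replicate numbers were not taken to pair samples. With a replicate block, calls went from 1230 to 809 for rhWnt3a against vehicle, from 664 to 233 for OSMI added to rhWnt3a and from 1986 to 1297 for rhWnt3a with OSMI against vehicle, the other retinoid genes called for OSMI added to rhWnt3a went from 3 to 0, and Cyp26a1 turned to 0.035 for rhWnt3a against vehicle. Calls for OSMI added to rhWnt3a were 1481 with no filter, 1289 with DESeq2 and 345 with only the 6 libraries compared. Other retinoid genes called for OSMI added to rhWnt3a were 1 with the 6 libraries, where Adh1 against vehicle turned to 0.023. Leaving out each library gave 716 to 1506, 203 to 764 and 1218 to 2328 calls in the 3 comparisons, lowest without rhWnt3a replicate 1, OSMI replicate 2 and vehicle replicate 1, and 3 to 6, 0 to 3 and 4 to 6 other retinoid genes. Uncalled differences whose sign turned when a library was left out ran, for rhWnt3a against vehicle, from −0.26 to 0.033 for Ppard, −0.45 to 0.79 for Cyp26a1, −0.35 to 0.22 for Ncor1 and −0.42 to 0.26 for Ep300. For OSMI added to rhWnt3a they ran from −0.044 to 0.71 for Cyp26b1, −0.012 to 0.18 for Meis2, −0.064 to 0.25 for Rara and −0.023 to 0.22 for Rarg. For rhWnt3a with OSMI against vehicle they ran from −0.58 to 0.099 for Crabp2, −0.15 to 0.22 for Adh1, −0.27 to 0.048 for Rara and −1.33 to 0.014 for Cyp26a1. The cause of these changes was not tested. At this depth Aldh1a2, Crabp1, Aldh1a3 and Rarb were too low for a fit.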
